A study of Homo sapiens with 18 samples.

Results

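The glucocorticoid receptor gene NR3C1 and 9 genes that glucocorticoids are known to induce, TSC22D3, FKBP5, PER1, DUSP1, KLF9, SGK1, ZFP36L2, TXNIP and ERRFI1, were followed through 18 RNA-seq libraries of HUDEP1, a human cell line of immortalised red cell progenitors. The genes were chosen by name, and all 10 were among the 13358 genes of the deposited table: 9 by their symbol, and PER1 by its identifier, because the table lists it under a clone-based name. The libraries came from 3 clones, FL with full-length GATA1 and 1D5 and 1KI9 with GATA1s, the short isoform of this erythroid transcription factor that lacks the N-terminal activation domain. There are 3 libraries for each clone in expansion and 3 for each after 4 days of differentiation, 6 groups in all. Expansion took place without serum in SFEM II that held dexamethasone (1 µM), stem cell factor (50 ng/mL), erythropoietin (3 U/mL) and doxycycline (1 µg/mL). Day-4 cells were kept in IMDM with 2% fetal bovine serum, 3% human AB serum, 10 µg/mL insulin, 3 U/mL heparin and 1 mg/mL holo-transferrin, and with doxycycline, erythropoietin and stem cell factor as in expansion. Dexamethasone, a synthetic glucocorticoid, is listed for expansion only. It left the medium together with every other change listed, so its part in any difference between the conditions cannot be told apart from medium, serum, time or differentiation. With 1 FL clone, genotype cannot be told apart from clone. The labels do not say that the replicates were separate cultures, so p-values measure only the spread between these libraries.

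Without hormone the glucocorticoid receptor sits in the cytoplasm in a complex with HSP90 and its cochaperones. With hormone it moves to the nucleus, binds DNA and changes the transcription of its targets, several of which limit the response in turn. FKBP5 is such a brake: its product is an HSP90 cochaperone that lowers the receptor's affinity for hormone. In erythroid cells glucocorticoid acts with stem cell factor and erythropoietin to keep progenitors dividing and delay their maturation, and for this reason dexamethasone is a standard component of erythroid expansion media.

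The upstream sequences of 4 genes are shown first, a pair that was higher at day 4 in FL and 1D5 and a pair that was lower, so that the regulatory sequence can be read beside the values. RefSeq promoter windows (GRCh38.p14) were found for 9 of the 10 genes, 22 windows in all. The 250 bases before each transcription start were searched on both strands for 6 motifs picked with the values already known. The windows shown are those with a match. Of the pair that was higher, TSC22D3 and TXNIP, each holds the forkhead core GTAAACA (or its reverse complement) in 1 window, of 4 for TSC22D3 and of 2 for TXNIP. It is a sequence that FOXO factors recognise and that 2.98% of 35116 such windows hold. TXNIP also holds the carbohydrate response element pair, a pair of E-box-like motifs within 17 bases, the site at which MondoA and ChREBP are known to act on this gene, found in 0.0456% of windows. Of the pair that was lower, FKBP5 and PER1, each holds an E-box, CACGTG, which 6.34% of windows hold, FKBP5 in 1 of its 2 windows and PER1 in its single window. KLF9 and ERRFI1, which were also lower, have 1 window each, with no match to any of the 6 motifs. Capitals mark the matched bases. The sequences read 5′ to 3′ on the minus strand, on which all 4 genes lie.
TSC22D3 (chrX:107717063-107717312): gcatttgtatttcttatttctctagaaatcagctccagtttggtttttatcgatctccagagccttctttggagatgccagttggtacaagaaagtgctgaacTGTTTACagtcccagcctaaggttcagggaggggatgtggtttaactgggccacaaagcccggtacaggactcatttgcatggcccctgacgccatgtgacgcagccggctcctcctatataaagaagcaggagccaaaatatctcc
TXNIP (chr1:145996580-145996829): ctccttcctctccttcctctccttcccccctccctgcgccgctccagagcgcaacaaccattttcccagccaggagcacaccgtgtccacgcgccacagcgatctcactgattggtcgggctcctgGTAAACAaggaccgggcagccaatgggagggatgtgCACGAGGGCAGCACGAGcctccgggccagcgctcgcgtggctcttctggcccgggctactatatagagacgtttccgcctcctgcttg
FKBP5 (chr6:35688916-35689165): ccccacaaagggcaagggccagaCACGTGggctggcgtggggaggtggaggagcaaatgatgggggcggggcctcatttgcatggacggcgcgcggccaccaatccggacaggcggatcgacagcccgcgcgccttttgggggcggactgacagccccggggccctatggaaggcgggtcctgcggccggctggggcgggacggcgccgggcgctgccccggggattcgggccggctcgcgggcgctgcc
PER1 (chr17:8152405-8152654): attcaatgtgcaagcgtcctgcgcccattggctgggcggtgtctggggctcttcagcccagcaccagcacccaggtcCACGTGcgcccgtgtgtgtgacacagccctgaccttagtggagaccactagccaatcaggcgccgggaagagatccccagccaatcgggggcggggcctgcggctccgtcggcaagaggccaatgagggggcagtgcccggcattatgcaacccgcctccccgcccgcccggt
The forkhead match in TSC22D3 lies 147 to 141 bases before the start and that in TXNIP 124 to 118 bases before it. NR3C1 holds the same core in 1 of its 7 windows, and DUSP1 holds an E-box and the cyclic AMP response element TGACGTCA, which 1.65% of windows hold. The full glucocorticoid response element, an inverted repeat of 15 bases, was in none of the 22 windows and in 1 window of all 35116. A string so rare was all but certain to be absent from 22 windows, so its absence says nothing about these genes. Its single arm AGAACA, in 12.4% of all windows, was in none of the 22 either. A match is a string of letters, not a site shown to be used. The values are sums over a gene's transcripts, so they do not show which start was used.

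The deposited expansion values are TPM, transcript abundances scaled to a fixed library total and corrected for length, so that levels can be compared between genes. The day-4 values are TPM-like with a further scaling, of which no label or header gives the method, so the scaling of the day-4 libraries and the change of condition cannot be told apart. Libraries summed to between 943734 and 950736 in expansion and between 814583 and 1081250 at day 4, and the read depth is unknown. Globin genes took 4.02 to 10.6% of a library's total in expansion, and at day 4 they took 38.2 to 39.4% in FL, 19.3 to 20.6% in 1D5 and 12.4 to 13.3% in 1KI9. Of the markers of the erythroid lineage, KLF1, an erythroid transcription factor, ranged from 134 to 448 over the 18 libraries, ALAS2, the first enzyme of erythroid heme synthesis, was at 81.1 or more in each, and SLC4A1, the red cell anion exchanger, at 12.59 or more. Differences below are in log2(value + 1) with the standard error (SE) from limma, a linear model fitted to all 11110 genes that reached 1 in at least 3 libraries, and a gene is called when its Benjamini-Hochberg adjusted p is under 0.05. Folds are ratios of group means. The median difference over all genes was not 0: day 4 minus expansion it was -0.38 for FL, -0.15 for 1D5 and -0.25 for 1KI9, and GATA1s minus FL at day 4 it was 0.29. After median-of-ratios scaling, which makes the typical gene equal between libraries, these medians were 0.02, 0.00, 0.02 and -0.02. The median of the genotype difference between conditions moved from 0.21 to 0.01, that of 1KI9 minus 1D5 in expansion from 0.11 to -0.05, that of its change between conditions from -0.07 to 0.04, and that of GATA1s minus FL in expansion from 0.06 to -0.05. A scaling that leaves out globin and mitochondrial genes was also tried.

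**Figure D1:**
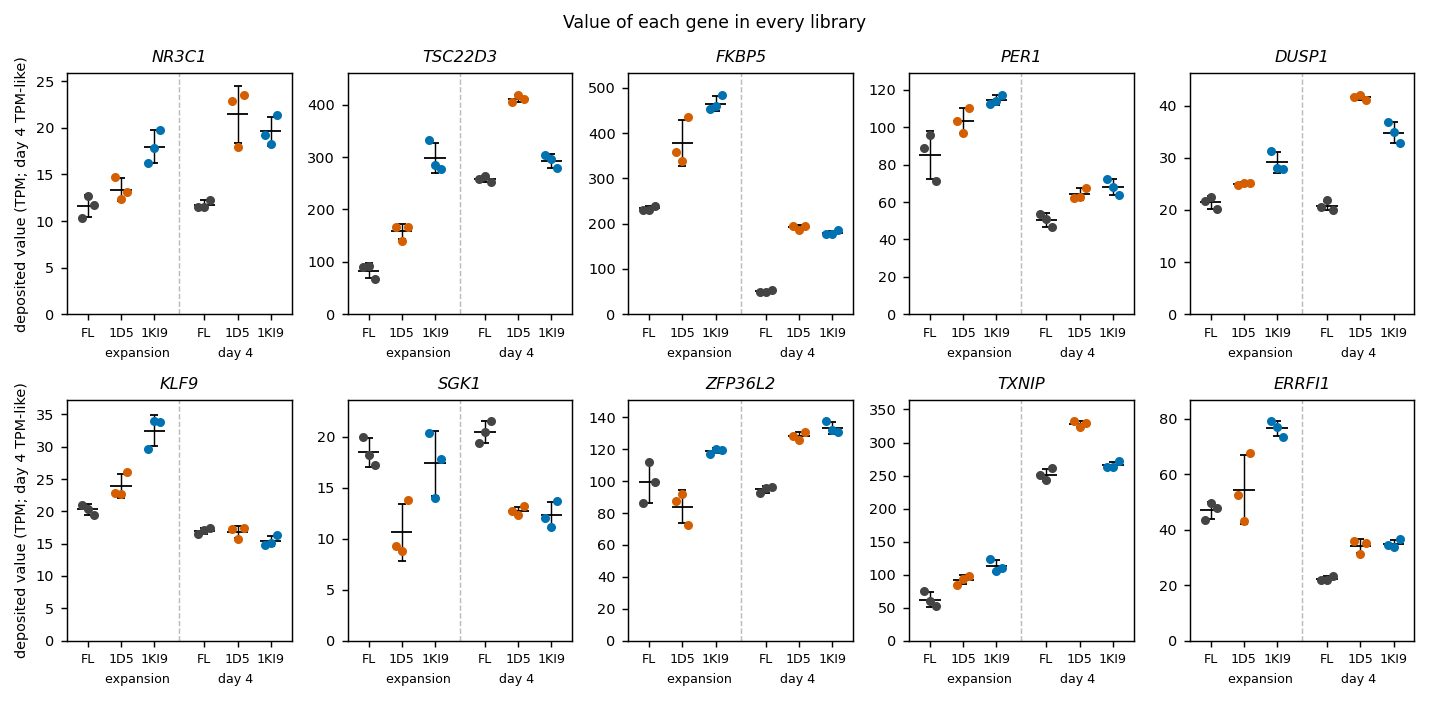
Deposited value of each of the 10 genes in every library (points; TPM in expansion, TPM-like at day 4), with the mean (line) and SD (bar) of the 3 libraries of a group. FKBP5 falls from 231 to 239 in FL expansion to 49.0 to 52.5 at day 4, while TXNIP rises from 51.8 to 74.9 to 243 to 261.

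NR3C1 (ENSG00000113580.15, chr5:143277931-143435512), the receptor gene, was the least abundant of the 10 genes in FL in both conditions and was called lower at day 4 in no clone. Its messenger is known to be lowered by its own hormone in many cells. Its expansion values were 10.3, 12.7 and 11.7 TPM for FL, 14.7, 12.3 and 13.1 for 1D5 and 16.2, 17.9 and 19.8 for 1KI9. Its day-4 values were 11.5, 11.5 and 12.3 for FL, 22.9, 17.9 and 23.5 for 1D5 and 19.2, 18.3 and 21.4 for 1KI9. The 1KI9 libraries lay above every FL library in both conditions, and the 1D5 libraries did so at day 4 only. From expansion to day 4 NR3C1 rose 1.61-fold in 1D5 (0.64 ± 0.10 SE, limma adjusted p = 1.74e-05), and the difference was 0.02 ± 0.10 in FL (adjusted p = 0.842) and 0.12 ± 0.10 in 1KI9 (adjusted p = 0.281). With median-of-ratios scaling it was 0.46 in FL (limma adjusted p = 5.24e-05) and 0.41 in 1KI9 (adjusted p = 0.000271). At day 4 it was 1.83-fold higher in 1D5 and 1.67-fold higher in 1KI9 than in FL (limma adjusted p = 1.78e-06 and 8.53e-06).

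FKBP5 (ENSG00000096060.14, chr6:35573585-35728583) was the most abundant of the 10 genes in expansion and the one that fell furthest at day 4. The expansion libraries held 231, 231 and 239 TPM for FL, 359, 339 and 436 for 1D5 and 452, 460 and 484 for 1KI9. The day-4 libraries held 50.03, 49.0 and 52.5 for FL, 194, 185 and 196 for 1D5 and 177, 177 and 185 for 1KI9. Every day-4 library lay below every expansion library, and every GATA1s library lay above the FL libraries of its condition. FKBP5 fell 4.63-fold in FL (-2.19 ± 0.07 SE, limma adjusted p = 5.02e-15), 1.97-fold in 1D5 (-0.97 ± 0.07, adjusted p = 3.36e-10) and 2.59-fold in 1KI9 (-1.37 ± 0.07, adjusted p = 7.17e-12). The fall was smaller in the GATA1s clones, and the test of that difference itself gave 1.02 ± 0.08 (limma adjusted p = 1.82e-08). FKBP5 was 3.80-fold higher in 1D5 and 3.56-fold higher in 1KI9 than in FL at day 4, against 1.62-fold and 1.99-fold in expansion.

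FKBP4, which encodes the cochaperone that competes with the FKBP5 product for HSP90 and favours receptor transport, is set beside FKBP5 after its values were seen. FKBP4 ranged from 102 to 124 TPM in FL, 90.4 to 96.4 in 1D5 and 77.5 to 85.4 in 1KI9 in expansion. At day 4 it ranged from 39.8 to 42.2 in FL, 32.3 to 34.6 in 1D5 and 32.5 to 34.9 in 1KI9. It fell in all 3 clones (-1.47 for FL, -1.46 for 1D5 and -1.23 for 1KI9), and it was lower in both GATA1s clones than in FL in both conditions, unlike FKBP5. The difference of its fall between GATA1s and FL was 0.13 ± 0.08 (limma adjusted p = 0.179).

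Most of the receptor's chaperone genes, FKBP4 among them, also fell. Of 18 chaperone and cochaperone genes, 16 were called lower at day 4 in each clone, where 57.2% of all genes tested were in FL, 47.0% in 1D5 and 52.2% in 1KI9. The number called higher was 2 in FL, 1 in 1D5 and 0 in 1KI9. The median of the list was -1.08 in FL, -0.61 in 1D5 and -0.62 in 1KI9, below the medians over all genes. In FL the largest falls were those of PPID, the cyclophilin 40 cochaperone (-1.99), PPP5C, a phosphatase of the receptor complex (-1.82), and STIP1, the adaptor that hands clients from HSP70 to HSP90 (-1.76). HSPA1A, an inducible HSP70 (0.67), and DNAJB1, an HSP40 (0.51), were the 2 called higher in FL; HSPA1A can share reads with a near-identical copy and is uncertain. With median-of-ratios scaling 14, 15 and 13 of the 18 were called lower in FL, 1D5 and 1KI9, beside 4425, 4376 and 3908 of 11014 genes tested. At day 4 the GATA1s clones were both higher than FL in 11 of the 18 genes and both lower in 3, near the shares of all genes, 51.2% and 14.3%. With median-of-ratios scaling the counts were 5 and 6, beside 2930 and 3469 of 11092 genes tested.

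TSC22D3 (ENSG00000157514.16, chrX:107713221-107777342) encodes GILZ, the glucocorticoid-induced leucine zipper, and is among the most uniformly induced glucocorticoid targets. It was higher at day 4 than in expansion in FL and 1D5. In expansion its level was 90.5, 91.8 and 66.3 TPM for FL, 167, 141 and 166 for 1D5 and 332, 285 and 278 for 1KI9. By day 4 its level was 259, 264 and 252 for FL, 405, 418 and 411 for 1D5 and 303, 296 and 278 for 1KI9. The 3 clones did not overlap in expansion, where the order was FL, 1D5, 1KI9; at day 4 they did not overlap either, but 1D5 was highest. TSC22D3 rose 3.12-fold in FL (1.64 ± 0.10 SE, limma adjusted p = 2.07e-11) and 2.60-fold in 1D5 (1.38 ± 0.10, adjusted p = 4.19e-10). In 1KI9 the difference was -0.02 ± 0.10 (limma adjusted p = 0.837), and it was 0.27 with median-of-ratios scaling (adjusted p = 0.0359). The rise differed between the 2 GATA1s clones by -1.40 ± 0.14 (1KI9 minus 1D5, limma adjusted p = 2.96e-06).

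TXNIP (ENSG00000265972.5, chr1:145992435-145996600), an arrestin-domain protein that binds thioredoxin and restrains glucose uptake, rose in all 3 clones at day 4. In expansion it stood at 74.9, 59.7 and 51.8 TPM for FL, at 84.3, 93.5 and 97.7 for 1D5 and at 123, 106 and 110.0 for 1KI9. At day 4 it stood at 250.4, 243 and 261 for FL, at 332, 323 and 329 for 1D5 and at 263, 262 and 271 for 1KI9. Every day-4 library lay above every expansion library, with 1D5 above the other clones at day 4. The rise was 4.04-fold in FL (2.01 ± 0.09 SE, limma adjusted p = 5.44e-13), 3.57-fold in 1D5 (1.83 ± 0.09, adjusted p = 4.24e-12) and 2.35-fold in 1KI9 (1.23 ± 0.09, adjusted p = 1.51e-09). TXNIP answers to glucose through MondoA as well as to glucocorticoid. Of 7 genes of the arrestin-domain family and the MondoA group, 4 were called higher in FL and 6 in each GATA1s clone. The shares of all genes called higher were 26.5% in FL, 31.9% in 1D5 and 22.2% in 1KI9. MLX, the shared dimer partner, was called lower in each clone (-1.09, -0.99 and -0.94). In FL the largest rises were those of MLXIPL, which encodes ChREBP (3.26), MLXIP, which encodes MondoA (1.79), and ARRDC2 (1.67). In 1KI9 those 3 genes rose by 0.92, 0.40 and 0.41.

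PER1 (ENSG00000179094.16, chr17:8140472-8156506), a repressor of the circadian clock and a direct receptor target, fell in all 3 clones. Its expansion values were 89.1, 95.9 and 71.1 TPM for FL, 104, 96.8 and 110.1 for 1D5 and 112, 114 and 117 for 1KI9. Its day-4 values were 53.6, 51.05 and 46.5 for FL, 62.2, 62.7 and 67.8 for 1D5 and 72.2, 68.02 and 63.5 for 1KI9. Expansion and day-4 libraries did not overlap within a clone. The fall was 1.69-fold in FL (-0.74 ± 0.09 SE, limma adjusted p = 2.89e-07), 1.61-fold in 1D5 (-0.68 ± 0.09, adjusted p = 1.13e-06) and 1.69-fold in 1KI9 (-0.75 ± 0.09, adjusted p = 4.45e-07). With median-of-ratios scaling it was -0.28 in FL (limma adjusted p = 0.0106), -0.51 in 1D5 and -0.45 in 1KI9. PER1 is overlapped by the gene model AC129492.3 on the same strand (chr17:8150816-8162975), which ranged from 2.29 to 12.03 over the libraries and was higher at day 4 in all 3 clones, so reads may be divided between them and the PER1 values are uncertain. Among 13 clock genes tested, 5 were called higher and 6 lower at day 4 in FL, against 4 and 7 for 1D5 and 4 and 7 for 1KI9 (5 and 5, 4 and 5, and 4 and 4 with median-of-ratios scaling). The shares of all genes called higher and lower were 26.5% and 57.2% in FL, 31.9% and 47.0% in 1D5 and 22.2% and 52.2% in 1KI9. With median-of-ratios scaling 4636 and 4425 of 11014 genes were called in FL, 4387 and 4376 in 1D5 and 4144 and 3908 in 1KI9. In FL the largest falls were those of PER3 (-2.54), CIART (-1.87) and PER2 (-1.50), and the largest rises those of RORA (2.23), BHLHE40 (1.40) and DBP (0.66).

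KLF9 (ENSG00000119138.4, chr9:70384597-70414624), a zinc-finger repressor induced directly by the receptor, differed in how far it fell. The expansion libraries held 21.1, 20.4 and 19.4 TPM for FL, 22.9, 22.7 and 26.1 for 1D5 and 29.7, 33.9 and 33.8 for 1KI9. The day-4 libraries held 16.5, 17.1 and 17.4 for FL, 17.3, 15.7 and 17.5 for 1D5 and 14.8, 15.1 and 16.3 for 1KI9. The clones were ordered without overlap in expansion, and at day 4 the 1D5 libraries overlapped those of both other clones. The difference was -1.03 ± 0.07 SE in 1KI9 (limma adjusted p = 4.82e-10) and -0.48 ± 0.07 in 1D5 (adjusted p = 6.66e-06). In FL it was -0.24 ± 0.07 on the deposited values (limma adjusted p = 0.00456) but 0.21 with median-of-ratios scaling (adjusted p = 0.0160) and 0.13 when scaled without globin and mitochondrial genes (adjusted p = 0.153), so its direction in FL depends on the scaling.

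ERRFI1 (ENSG00000116285.13, chr1:8004404-8026308), a feedback inhibitor of the EGF receptor family, fell in all 3 clones. In expansion its level was 43.6, 49.6 and 48.01 TPM for FL, 52.4, 43.3 and 67.7 for 1D5 and 79.1, 77.1 and 73.4 for 1KI9. By day 4 its level was 21.8, 21.7 and 23.3 for FL, 35.9, 31.1 and 35.04 for 1D5 and 34.5, 33.8 and 36.6 for 1KI9. Expansion and day-4 libraries did not overlap in any clone, although the 1D5 expansion libraries were spread widely. The fall was 2.11-fold in FL (-1.05 ± 0.11 SE, limma adjusted p = 4.16e-08), 1.60-fold in 1D5 (-0.64 ± 0.11, adjusted p = 2.57e-05) and 2.19-fold in 1KI9 (-1.11 ± 0.11, adjusted p = 3.75e-08).

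DUSP1 (ENSG00000120129.6, chr5:172768090-172771195), a phosphatase that switches off MAP kinases, and ZFP36L2 (ENSG00000152518.8, chr2:43222402-43226609), an RNA-binding protein required for self-renewal of erythroid progenitors, rose at day 4 in 1D5. DUSP1 stood in expansion at 21.7, 22.6 and 20.2 TPM for FL, at 24.7, 25.1 and 25.2 for 1D5 and at 31.4, 28.1 and 27.9 for 1KI9. At day 4 it stood at 20.6, 21.8 and 20.05 for FL, at 41.7, 42.01 and 40.99 for 1D5 and at 36.8, 34.9 and 32.8 for 1KI9. It rose 1.66-fold in 1D5 (0.71 ± 0.06 SE, limma adjusted p = 6.15e-09) and 1.20-fold in 1KI9 (0.25 ± 0.06, adjusted p = 0.00136), and the day-4 order of the clones, FL, 1KI9, 1D5, had no overlap. ZFP36L2 stood in expansion at 86.1, 112 and 99.2 TPM for FL, at 87.5, 92.1 and 72.4 for 1D5 and at 117, 120.1 and 119.7 for 1KI9. Its day-4 values were 92.5, 95.9 and 96.04 for FL, 129, 126 and 131 for 1D5 and 137, 132 and 131 for 1KI9. Both GATA1s clones lay above FL at day 4, and in expansion 1D5 overlapped FL. ZFP36L2 rose 1.53-fold in 1D5 (0.61 ± 0.08 SE, limma adjusted p = 2.06e-06). In 1KI9 its difference was 0.16 (limma adjusted p = 0.0853), and it was 0.46 with median-of-ratios scaling (adjusted p = 5.05e-06). In FL neither gene was called on the deposited values (DUSP1 -0.04, ZFP36L2 -0.06), and both were higher with median-of-ratios scaling (0.41 each, limma adjusted p = 3.63e-05 and 1.11e-05).

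SGK1 (ENSG00000118515.11, chr6:134169246-134318112), a kinase that regulates ion transport and is induced by glucocorticoid and mineralocorticoid, was called lower in both GATA1s clones than in FL at day 4. In expansion it stood at 20.03, 18.2 and 17.2 TPM for FL, at 9.27, 8.80 and 13.8 for 1D5 and at 20.4, 13.99 and 17.8 for 1KI9. The day-4 libraries held 19.4, 20.5 and 21.5 for FL, 12.7, 12.3 and 13.2 for 1D5 and 12.01, 11.2 and 13.7 for 1KI9. FL lay above both GATA1s clones at day 4, where SGK1 was 1.61-fold lower in 1D5 and 1.66-fold lower in 1KI9 (limma adjusted p = 0.000386 and 0.000163). From expansion to day 4 the difference was 0.14 ± 0.14 SE in FL and 0.26 ± 0.14 in 1D5 (limma adjusted p = 0.338 and 0.0831), and SGK1 fell by 0.46 ± 0.14 in 1KI9 (adjusted p = 0.00572). Without the third 1D5 expansion library, the highest of its group, the 1D5 value was 0.45 (limma adjusted p = 0.00199). With median-of-ratios scaling the values for FL, 1D5 and 1KI9 were 0.59, 0.42 and -0.18 (limma adjusted p = 0.00136, 0.0159 and 0.297).

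Between the conditions the targets went in both directions. At day 4 in FL, 2 of the 10 genes were called higher (TSC22D3, TXNIP) and 4 lower (FKBP5, ERRFI1, PER1, KLF9), where 26.5% of all genes tested were called higher and 57.2% lower. In 1D5, 5 were called higher and 4 lower, against 31.9% and 47.0% of all genes. In 1KI9, 2 were called higher and 5 lower, against 22.2% and 52.2%. FKBP5, PER1, KLF9 and ERRFI1 were called lower in all 3 clones, which 40.5% of all genes were, and TXNIP was called higher in all 3, which 15.9% of all genes were. The counts lie near these shares of all genes. With median-of-ratios scaling the counts were 7 higher and 3 lower in FL, against 6 and 4 for 1D5 and 5 and 4 for 1KI9. Of 11014 genes tested, 4636 were then called higher and 4425 lower in FL, 4387 and 4376 in 1D5 and 4144 and 3908 in 1KI9. Higher calls as a share of all calls, higher and lower together, moved from 31.7% to 51.2% in FL. That share moved from 40.5% to 50.1% in 1D5 and from 29.8% to 51.5% in 1KI9. FKBP5, PER1 and ERRFI1 stayed lower, and TXNIP higher, in all 3 clones under both other scalings.

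**Figure D2:**
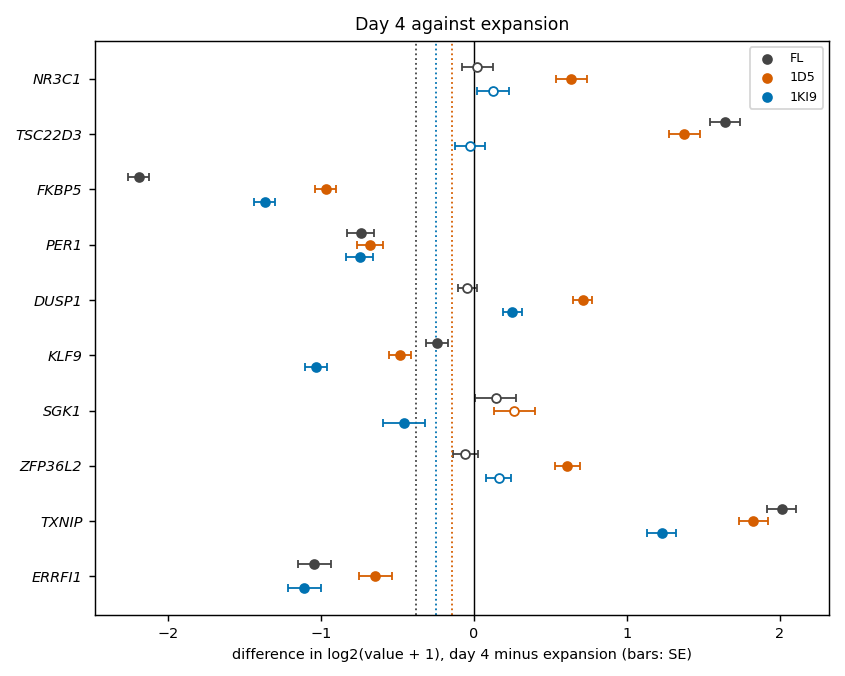
Difference in log2(value + 1), day 4 minus expansion, for each gene in FL, 1D5 and 1KI9 (points; bars are SE; filled points are called, open points are not). Dotted lines mark the median over all genes in each clone, -0.38, -0.15 and -0.25; FKBP5 in FL lies at -2.19 and TXNIP in FL at 2.01.

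Other genes that glucocorticoids are known to induce also went in both directions. Of 32 on the list, 26 were in the table and 22 were tested between conditions. At day 4, 12 were called higher and 9 lower in FL, against 14 and 5 for 1D5 and 7 and 9 for 1KI9 (10 and 8 with median-of-ratios scaling). Over all genes, 26.5% were called higher and 57.2% lower in FL, 31.9% and 47.0% in 1D5 and 22.2% and 52.2% in 1KI9. Leaving out single libraries gave 10 to 12 higher and 9 to 10 lower in FL, and 5 to 6 and 8 to 9 in 1KI9. In 1D5 it gave 14 higher and 4 to 5 lower. The list's median was 0.61 in FL, 0.66 in 1D5 and -0.08 in 1KI9. MT2A, a metallothionein induced by metals as well as glucocorticoid, had the largest rise, from 0.13 to 1.05 TPM in FL expansion to 137 to 146 at day 4 (6.45), and it rose by 6.58 in 1D5 and 6.15 in 1KI9. In FL it was followed by BCL6, a transcriptional repressor (2.38), and PDK4, a brake on pyruvate oxidation (2.35). The largest falls in FL were those of DDIT4, an inhibitor of mTORC1 (-1.79), PER2 (-1.50) and CEBPD, a transcription factor (-1.26). DDIT4 ranged from 190.4 to 275 TPM in FL expansion and from 65.4 to 70.2 at day 4, but from 249 to 267 and from 216 to 227 in 1D5. Metallothioneins have near-identical copies, so the MT2A value is uncertain in size.

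Genes that glucocorticoids are known to repress could hardly be followed: of 13 listed, 7 were in the table and 2 were tested between conditions, one of them NR3C1 itself. The other, CXCL8, an inflammatory chemokine, rose at day 4 by 4.59 in FL, 6.16 in 1D5 and 4.47 in 1KI9. Immediate-early genes, many of which DUSP1's substrates drive, were mostly higher at day 4. Of 22 tested, 15 were called higher and 4 lower in FL, against 18 and 2 for 1D5 and 13 and 4 for 1KI9, beside 26.5%, 31.9% and 22.2% of all genes called higher and 57.2%, 47.0% and 52.2% lower. With median-of-ratios scaling these counts were 18 and 3, 19 and 1, and 15 and 2. Over all 11014 genes tested with that scaling they were 4636 and 4425, 4387 and 4376, and 4144 and 3908. In 1D5 the lower count was also 1 without the second expansion library, the second day-4 library or the third day-4 library. The largest rises in FL were those of the antiproliferative genes BTG2 (2.87) and BTG1 (2.17) and the nuclear receptor NR4A2 (1.57), and the largest falls were those of EGR2 (-1.68), FOSL1 (-1.65) and EGR1 (-1.40). Of 19 receptor coregulators, 5 were called higher and 12 lower in FL, against 5 and 10 for 1D5 and 2 and 12 for 1KI9, with the p160 coactivators NCOA2 (0.84), NCOA1 (0.57) and NCOA3 (0.36) highest in FL and HDAC2 (-1.38), SMARCA4 (-1.28) and CARM1 (-1.13) lowest. These counts lie near the shares of all genes. Without the third FL expansion library, or the first or the third FL day-4 library, 3 coregulators were called higher in FL, and without the first 1KI9 library of either condition 1 was called higher in 1KI9. With median-of-ratios scaling 8 coregulators were called higher and 8 lower in FL, against 7 and 7 for 1D5 and 4 and 6 for 1KI9. Of 3 steroid-handling and steroid receptor genes tested, ABCC1, an exporter, and H6PD, which supplies NADPH for cortisol regeneration, rose in all 3 clones, and PGR fell. Levels were low: the 5 genes of this list in the table summed to 8.76 to 11.15 TPM in FL expansion. Only 2 of the 5 reached 1 in all 3 of those libraries.

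**Figure D3:**
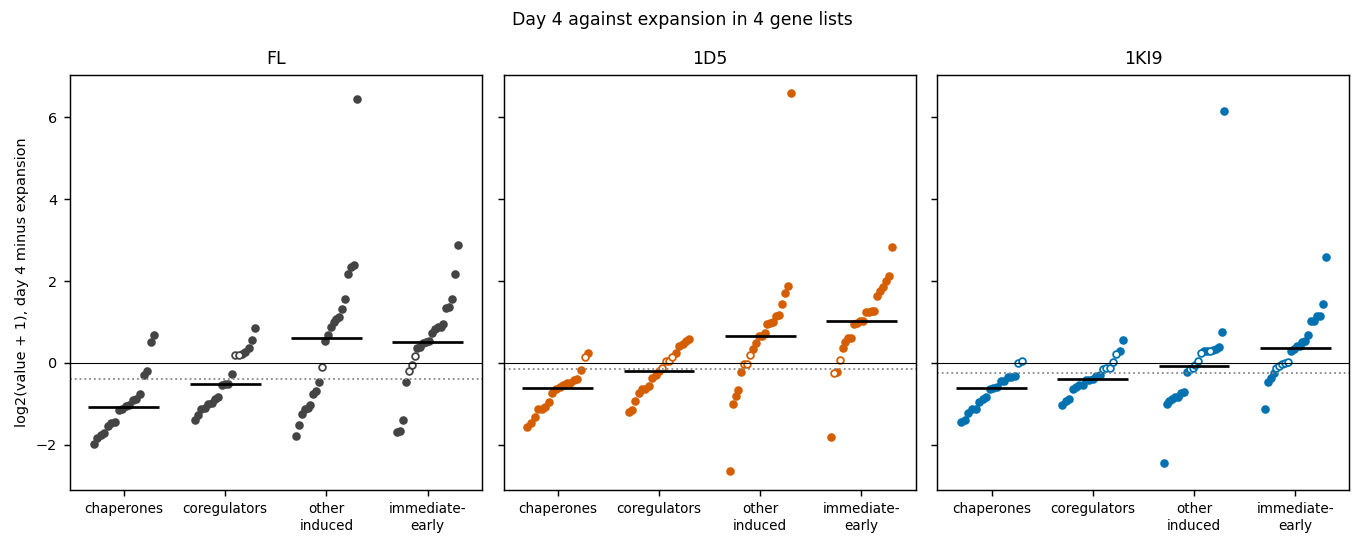
Difference in log2(value + 1), day 4 minus expansion, of each gene tested in 4 lists, in FL, 1D5 and 1KI9 (points in order of size; filled points are called, open points are not; black lines are list medians and dotted lines the median over all genes). Of the chaperones 16 of 18 are called lower in each clone, while the other induced genes spread to both sides, with MT2A the top point at 6.15 to 6.58.

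In expansion, with dexamethasone in the medium, several targets were higher in the GATA1s clones than in FL. In this comparison 6 of the 10 genes were called higher in both clones, TSC22D3, FKBP5, TXNIP, KLF9, PER1 and DUSP1, and 0 lower, where 17.5% of all genes tested were called higher in both clones and 8.98% lower. The mean difference of the 2 clones from FL was 1.39 ± 0.09 SE for TSC22D3, 0.84 ± 0.06 for FKBP5, 0.72 ± 0.08 for TXNIP, 0.44 ± 0.06 for KLF9, 0.36 ± 0.08 for PER1 and 0.32 ± 0.05 for DUSP1 (limma adjusted p of the mean from 2.79e-10 to 0.000708). TSC22D3 was 1.91-fold higher in 1D5 and 3.60-fold higher in 1KI9. NR3C1 and ERRFI1 passed in 1KI9 only (0.59 and 0.69, against 0.19 and 0.19 in 1D5). ERRFI1 passed in 1D5 too without the second 1D5 expansion library (0.34, limma adjusted p = 0.0124). SGK1 was lower than FL in 1D5 (-0.77). ZFP36L2 differed from FL by -0.24 in 1D5 and 0.27 in 1KI9 (limma adjusted p = 0.0379 and 0.00984). The 1KI9 value was 0.06 with median-of-ratios scaling (limma adjusted p = 0.460) and 0.17 without the first FL library (adjusted p = 0.0654). The 1D5 value was -0.14 without the second FL library, -0.23 without the third and -0.13 without the third 1D5 library (limma adjusted p = 0.195, 0.0850 and 0.219), and it did not pass without a variance trend (0.0530) or with the compared libraries only (0.208). With median-of-ratios scaling 4 of the 10 were called higher and 0 lower, beside 1627 higher and 1712 lower of 11039 genes tested. Higher calls as a share of all calls, higher and lower together, moved from 66.0% to 48.7%. KLF9 and DUSP1 were lost, at 0.19 and 0.18 in 1D5 (limma adjusted p = 0.0519 and 0.0582). The count was 3 without the third FL expansion library, and also 3 when the model was fitted to the compared libraries only. PER1, DUSP1 and KLF9 were lost in both cases, at 0.16, 0.17 and 0.19 in 1D5 without that library (limma adjusted p = 0.126, 0.0749 and 0.0881). Without the third 1D5 expansion library PER1 and KLF9 were lost (0.24 and 0.16 in 1D5, limma adjusted p = 0.0796 and 0.120). The third FL library held the lowest FL expansion value of TSC22D3, PER1, TXNIP, KLF9 and DUSP1.

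**Figure D4:**
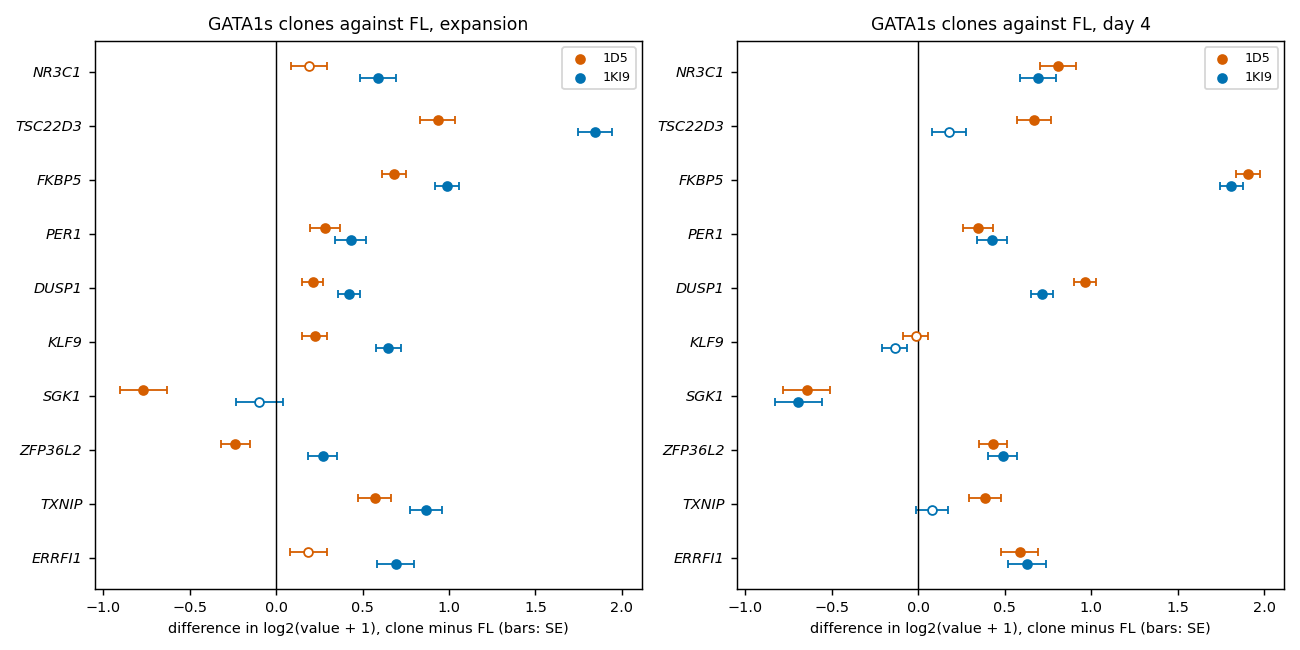
Difference in log2(value + 1), clone minus FL, for each gene in expansion (left) and at day 4 (right), for 1D5 and 1KI9 (points; bars are SE; filled points are called, open points are not). In expansion TSC22D3 reaches 1.85 in 1KI9, and at day 4 FKBP5 stands at 1.91 in 1D5 and 1.81 in 1KI9.

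At day 4, with dexamethasone no longer listed, 6 genes were again called higher in both clones, but not all of the same ones: FKBP5, DUSP1, NR3C1, ERRFI1, ZFP36L2 and PER1. SGK1 was called lower. These counts read against 51.2% of all genes called higher in both clones and 14.3% lower, so a share of the members close to that of all genes was called. FKBP5 stood furthest out, at 1.86 ± 0.06 SE over the 2 clones (limma adjusted p = 1.59e-14), followed by DUSP1 at 0.84 ± 0.05 (adjusted p = 1.28e-10) and NR3C1 at 0.75 ± 0.09 (adjusted p = 5.17e-07). With median-of-ratios scaling, 3 were called higher and 2 lower, beside 2930 higher and 3469 lower of 11092 genes tested. Higher calls as a share of all calls, higher and lower together, moved from 78.2% to 45.8%. PER1, ZFP36L2 and ERRFI1 were no longer called. PER1 was then at 0.02 in 1D5 and 0.04 in 1KI9, ZFP36L2 at 0.10 in both and ERRFI1 at 0.27 and 0.25 (limma adjusted p = 0.0552 and 0.0615). KLF9 was called lower (-0.33 and -0.51, limma adjusted p = 0.000729 and 8.63e-06). The difference between the conditions was itself called higher for 4 genes, FKBP5, DUSP1, ZFP36L2 and NR3C1, and lower for 3, TSC22D3, KLF9 and TXNIP, where 45.4% and 19.7% of all genes were. These counts lie near the shares of all genes. With median-of-ratios scaling 3 were called higher, NR3C1 no longer among them (0.14, limma adjusted p = 0.240), and 4 lower, SGK1 added (-0.47, adjusted p = 0.0330). Of 11014 genes tested, 3416 were then called higher and 3379 lower. Higher calls as a share of all calls moved from 69.7% to 50.3%. The NR3C1 change was also lost without the second FL expansion library (0.30, limma adjusted p = 0.0626). Among the other induced genes, 8 of 22 were higher in both GATA1s clones and 3 lower in expansion, beside 17.5% and 8.98% of all genes. The highest were ZFP36 (1.41), ANGPTL4 (1.26) and ZBTB16 (1.23). At day 4, 11 of 23 were higher and 8 lower (5 lower without the third FL day-4 library), beside 51.2% and 14.3% of all genes. PIK3R1 (2.37), GLUL (1.82) and ZBTB16 (1.69) were then highest and PDK4 (-2.47), BCL6 (-1.96) and FOXO3 (-1.54) lowest.

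Markers of maturation and of other lineages differed between the clones along with these genes. At day 4, compared with FL, 11 of 12 erythroid markers were lower in both GATA1s clones and none was higher. Their summed level was 149230 to 152260 in FL, 78711 to 92427 in 1D5 and 50942 to 56363 in 1KI9. The shares of all genes called in both clones were 51.2% higher and 14.3% lower at day 4. In expansion these shares were 17.5% and 8.98%. With so high a share at day 4, a few markers called higher there say little alone. Of 8 genes of progenitor self-renewal tested, 4 were higher in both GATA1s clones and 3 lower at day 4. KIT, the stem cell factor receptor (1.86), MYB (1.83) and GATA2 (1.06) were the highest, and PPARA, TAL1 and LMO2 were the 3 lower. The genotype difference between conditions was -0.89 for PPARA, -0.63 for TAL1 and -0.14 for LMO2. Of 12 monocyte and neutrophil markers 6 were in the table and 4 were tested, and 3 were higher in both GATA1s clones in both conditions (CD68, TYROBP and SPI1). The 6 summed to 13.9 to 49.7 TPM in FL, 50.5 to 65.4 in 1D5 and 214 to 259 in 1KI9 in expansion, and to 44.3 to 48.2, 334 to 356 and 406 to 430 at day 4. CSF1R was listed at 0 in every FL library and stayed at or under 0.34 elsewhere. Of 6 mast cell and basophil markers 5 were in the table, and 4 of 4 tested were higher in both GATA1s clones at day 4. They summed to 3.13 to 4.37 in FL, 5.25 to 10.4 in 1D5 and 70.7 to 95.3 in 1KI9 in expansion, and to 49.0 to 53.5, 165 to 172 and 289 to 310 at day 4; MS4A2 was listed at 0 in every day-4 library. Of 7 megakaryocyte markers 3 were in the table and 2 were tested. Their sum was 0.31 to 0.56 TPM in FL, 1.54 to 3.05 in 1D5 and 8.40 to 11.45 in 1KI9 in expansion, and 4.01 to 4.46, 19.9 to 23.3 and 16.2 to 17.7 at day 4. In expansion ITGA2B (1.12) and ITGB3 (1.81), the subunits of the platelet fibrinogen receptor, were called higher in both GATA1s clones, and at day 4 ITGB3 was (2.06). Lymphocyte and stromal markers in the table summed to at most 4.45 and 3.56. The part of these cell states in the receptor target values was not tested, and in bulk RNA fewer cells of a type and less RNA per cell cannot be told apart.

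The 2 GATA1s clones differed from each other in the targets in expansion. There 9 of the 10 genes were called higher in 1KI9 than in 1D5, all but PER1, and 0 lower, where 33.4% of all genes were called higher and 7.16% lower. The differences ran from 0.21 ± 0.06 SE for DUSP1 to 0.91 ± 0.10 for TSC22D3. At day 4, 0 were called higher and 3 lower, TSC22D3 (-0.49 ± 0.10, limma adjusted p = 0.00190), TXNIP (-0.30 ± 0.09, adjusted p = 0.0302) and DUSP1 (-0.25 ± 0.06, adjusted p = 0.00912), where 12.5% of all genes were called higher and 6.69% lower; without the third 1KI9 day-4 library 1 of the 3 remained called. The change of the clone difference between conditions was called lower for 9 genes, again all but PER1, and higher for 0, against 17.6% and 4.38% of all genes. It ran from -0.40 for FKBP5 to -1.40 for TSC22D3, beside a median of -0.07 over all genes. Without the first 1KI9 expansion library the expansion differences of DUSP1 and TXNIP were no longer called (limma adjusted p = 0.0687 and 0.0857), nor was that of TXNIP without the first 1D5 expansion library (adjusted p = 0.0814). Without the third 1D5 day-4 library the change for NR3C1 was not called (limma adjusted p = 0.0530). With median-of-ratios scaling 6 of the 10 were called higher in 1KI9 in expansion, FKBP5, DUSP1 and TXNIP no longer among them, 3 lower at day 4 and 7 lower in the change between conditions, with FKBP5 (-0.27, limma adjusted p = 0.0925) and ERRFI1 (-0.34, adjusted p = 0.142) no longer called. With that scaling 2121 of 11039 genes tested were called higher in expansion and 2847 lower. At day 4 the counts were 1149 and 1131 of 11092, and in the change between conditions 1589 and 1369 of 11014. Higher calls as a share of all calls, higher and lower together, moved from 82.4% to 42.7% in expansion. That share moved from 65.1% to 50.4% at day 4 and from 19.9% to 53.7% in the change between conditions. When each of 12 libraries was left out in turn, the ERRFI1 change was lost in 8 cases, with limma adjusted p from 0.000756 to 0.0906. The TXNIP difference at day 4 was lost in each of 6 (adjusted p from 0.0660 to 0.0838).

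**Figure D5:**
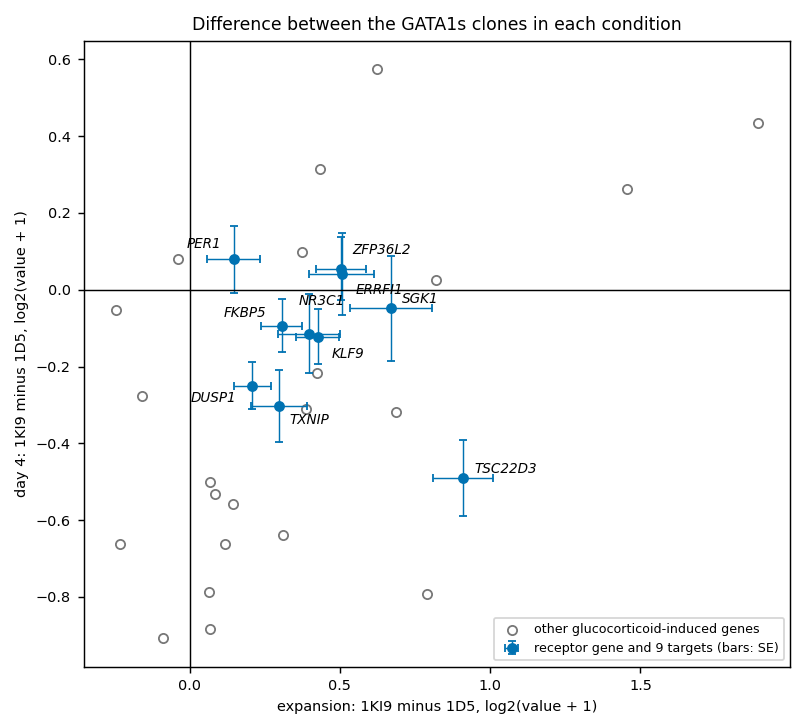
Difference in log2(value + 1) between the GATA1s clones, 1KI9 minus 1D5, in expansion (horizontal axis) and at day 4 (vertical axis), for the 10 genes (filled; bars are SE) and for 22 other glucocorticoid-induced genes (open). TSC22D3 lies at 0.91 in expansion and -0.49 at day 4; the 10 genes are all to the right of 0 in expansion, PER1 not past the test and turned to -0.03 by median-of-ratios scaling.

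The list of other glucocorticoid-induced genes, which shares no gene with the 10, was also split by clone and condition. In expansion 11 of 22 were called higher in 1KI9 and 0 lower, beside 33.4% and 7.16% of all genes. At day 4, 1 of 23 was called higher (0 without the second 1D5 day-4 library and 2 without the third 1KI9 one) and 14 lower, beside 12.5% and 6.69% of all genes. The change between conditions was called lower for 15 of 22 and higher for 0, beside 17.6% and 4.38% of all genes. Its median was -0.70 over the list and -0.07 over all genes. With median-of-ratios scaling the list's counts were 8 and 1, 1 and 14, and 14 and 0. Over all genes they were then 2121 and 2847 of 11039, 1149 and 1131 of 11092, and for the change between conditions 1369 lower and 1589 higher of 11014. Leaving out single libraries left 11 to 12 lower at day 4 and 14 to 15 lower in the change between conditions. In expansion the largest differences were those of RGS2, which limits G-protein signalling (1.89), KLF6 (1.46) and SESN1 (0.82). At day 4 the largest falls below 1D5 were those of PIK3R1, the regulatory subunit of PI3-kinase (-0.91), RASD1, a dexamethasone-induced Ras protein (-0.88), and ANGPTL4 (-0.79), and the gene called higher was ZBTB16 (0.57). Of the immediate-early genes 12 of 22 were called lower in the change between conditions, among them JUN (-1.26), ATF3 (-1.23) and BTG2 (-1.10). EGR2 was called higher (0.69). These calls read against 17.6% of all genes called lower and 4.38% higher. Leaving out single libraries left 10 to 13 immediate-early genes lower and 0 to 1 higher.

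Across the 18 libraries the gene whose level ran closest to that of NR3C1, among 8565 genes with a mean of at least 5, was CDC42SE1 (Pearson r = 0.970), followed by KBTBD2, PTPRA, CDC42BPB and UBE2Z (0.965 to 0.955). After the mean of each condition was subtracted the 5 closest were FEM1C, NCKAP1, CDC42SE1, HGSNAT and MCL1 (0.974 to 0.966). For TSC22D3 they were ORAI2, MVP, RRAS, SERTAD1 and MAGED2 (0.981 to 0.974), and within condition ING4, MAGED2, ORAI2, CYSTM1 and MVP (0.973 to 0.967). The 18 points fall into 6 groups and share clone and scaling, so these values describe likeness only.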

How the data were processed

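RNA was measured by stranded poly(A) RNA-seq in 18 libraries, 3 for each of 3 clones in 2 conditions. Per the submitters' processing notes, the tools were Trim Galore 0.60, STAR 2.7 and RSEM 1.31 with hg38. The deposited expansion values are TPM. The deposited day-4 values were treated as a signal, because their sums pass the limit for TPM in FL and neither labels nor headers describe how the authors scaled them further; the planned test was kept. Gene coordinates are those of GENCODE release 29 on GRCh38, the same assembly as hg38, in which 13328 of the 13358 gene identifiers were found. Values were taken as log2(value + 1), genes with at least 1 in at least 3 libraries were kept (11110 genes), and limma 3.58.1 in R 4.3.3, with a variance trend, was fitted to all 6 groups. Adjusted p is Benjamini-Hochberg over all genes tested, with a threshold of 0.05. Genes listed at 0 throughout a condition were not tested in contrasts that use it. A GATA1s call needs both clones past the threshold with the same sign. The fit was tested on simulated data. The 10 genes and all lists were chosen with earlier results of these data known. All 10 genes are named, and of another list at most 3 called genes with the largest rise and 3 with the largest fall. The clone by condition comparison and the promoter search were added after the data were seen. Tables and figures were made with Python 3.11.15, pandas 2.3.3, numpy 2.4.6 and matplotlib 3.10.9. Alternatives were another pseudocount, no filter, 2 other scalings, a replicate block, no variance trend, a fit to the compared libraries only and leaving out each library.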

Additional observations from a re-analysis of the deposited data

Results flagged for a closer look

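By limma's interaction term, the difference between the GATA1s clones and FL changed between expansion and day 4 for 7 of the 10 genes. Values are in log2(value + 1). Of all genes, 45.4% were called higher and 19.7% lower, so the count lies near the shares of all genes. The change was 1.02 for FKBP5, 0.523 for DUSP1, 0.443 for ZFP36L2 and 0.358 for NR3C1, which were higher relative to FL at day 4 than in expansion; with median-of-ratios scaling that of NR3C1 was 0.14 (limma adjusted p = 0.240). It was -0.965 for TSC22D3, -0.514 for KLF9 and -0.486 for TXNIP, which were lower relative to FL at day 4 than in expansion.

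The difference between the 2 GATA1s clones, 1KI9 minus 1D5, changed between the conditions for 9 of the 10 genes, each towards lower at day 4, where 17.6% of all genes were called lower. The change was -1.4 for TSC22D3, -0.72 for SGK1, -0.6 for TXNIP, -0.548 for KLF9 and -0.514 for NR3C1. It was -0.465 for ERRFI1, -0.459 for DUSP1, -0.45 for ZFP36L2 and -0.401 for FKBP5; with median-of-ratios scaling those of ERRFI1 and FKBP5 were no longer called (-0.34 and -0.27, limma adjusted p = 0.142 and 0.0925).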

How the results depend on the processing

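A pseudocount of 0.1, no filter, no variance trend and the replicate block each left all 90 values of single genes, over the 9 comparisons counted here, with their direction and on their side of the threshold. For GATA1s minus FL the value is the mean of the 2 clones. Deviations of same-numbered libraries of different groups correlated with r from -0.193 to 0.560 (median 0.068). All 3 same-number values were over 0.1 in 1 of 15 pairs of groups, FL and 1KI9 in expansion (0.145, 0.109 and 0.133), and not in the others, so the numbers were not taken as pairs. With the replicate block 6 genes were called between GATA1s and FL in expansion, as without it, and the counts of genes called were 6, 9 and 7 at day 4 in FL, 1D5 and 1KI9, as without it. With median-of-ratios scaling 10 genes in place of 6 were called at day 4 in FL. With the compared libraries only, 3 in place of 6 were called between GATA1s and FL in expansion. Leaving out single libraries gave 6 to 6, 9 to 10 and 7 to 7 genes called at day 4 in FL, 1D5 and 1KI9, 3 to 7 and 7 to 7 between GATA1s and FL in expansion and at day 4, 7 to 9 and 1 to 2 between the GATA1s clones, 6 to 8 for the genotype difference between conditions and 7 to 9 for the clone difference.

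Directions turned with median-of-ratios scaling for day 4 in FL of DUSP1 (0.41), KLF9 (0.21) and ZFP36L2 (0.41), for day 4 in 1KI9 of TSC22D3 (0.27), for GATA1s minus FL of ZFP36L2 in expansion (-0.11) and TXNIP at day 4 (-0.13), for 1KI9 minus 1D5 of PER1 in expansion (-0.0339) and ERRFI1 at day 4 (-0.0114), for the genotype difference between conditions of PER1 (-0.21) and ERRFI1 (-0.0557), and for the clone difference between conditions of PER1 (0.0601). Scaled without globin and mitochondrial genes, they turned for day 4 in FL of DUSP1 (0.33), KLF9 (0.13) and ZFP36L2 (0.33), for day 4 in 1KI9 of TSC22D3 (0.33) and for the genotype difference of PER1 (-0.0242). For GATA1s minus FL the leave-one-out cases also use the mean of the 2 clones. The calls given above that need both clones and were lost or gained are therefore not among the changed cases. Leaving out single libraries kept direction and side of the threshold in 744 of 780 cases. It turned values that had not passed the threshold in 13, with ranges at day 4 of -0.0502 to 0.0862 for NR3C1 and -0.153 to 0.0366 for ZFP36L2 in FL and of -0.0716 to 0.0554 for TSC22D3 in 1KI9. For ZFP36L2 in GATA1s minus FL in expansion the range was -0.0806 to 0.109, for PER1 in the genotype difference -0.0617 to 0.152, and for 1KI9 minus 1D5 at day 4 it was -0.125 to 0.0125 for SGK1 and -0.0195 to 0.0794 for ERRFI1. The cause was not tested. Depth is unknown, so counting error could not be given.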
